A study of Drosophila melanogaster with 78 samples.

Results

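The nuclear-encoded subunits of the oxidative phosphorylation machinery were followed across 18 groups of whole Drosophila melanogaster embryos at stage 15, the stage at which the axon tracts of the nerve cord are being laid down. Subunits were taken by gene symbol: names of the ND, Sdh, UQCR, COX and ATPsyn families, together with Cyt-c1, RFeSP, ox, levy and cype, with the probe set of highest mean standing for each gene. Of 96 genes in the gene table that carry such a name, 71 had a probe set of their own and are described, out of 10843 named genes on the array. They comprise 17 genes whose names mark them as copies of another subunit, such as ND-20L beside ND-20, and 54 without such a name. The 54 are called broadly used subunits here, by name only: how widely each is used was not measured. By complex, there were 31 genes of complex I (5 of them copies), 6 of complex II (3 copies), 7 of complex III (1 copy), 13 of complex IV (4 copies) and 14 of complex V (4 copies). The other 25 genes, among them SdhA, Cyt-c-p, UQCR-C1, UQCR-C2 and the mitochondrially encoded COX1 to COX3, were not analysed here.

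Complexes I to IV form the respiratory chain of the inner mitochondrial membrane. Complex I takes electrons from NADH and complex II from succinate, complex III passes them to cytochrome c and complex IV to oxygen. Complexes I, III and IV pump protons as they do so, and complex V, the ATP synthase, uses the resulting gradient to make ATP. Most subunits are made in nearly all tissues. Several of the copies are known from the adult testis, where mitochondria are remodelled for the sperm tail.

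The arrays came from a study of axon guidance. The tested groups were labelled slit, slit/WT, robo, robo/WT, comm, comm/WT, robo2, robo12, slit.robo, UC2x, UC, UNC5, URyf.mef, URyf, UR2, UR and FRM, and the control was labelled WT. UC2x, UNC5, URyf.mef, URyf, slit.robo and WT had 5 arrays each and the other groups 4 each, 78 in all. Slit is a repellent of the ventral midline, Robo and Robo2 are its receptors, and Commissureless keeps Robo off the growth cone. Unc-5 is a repulsive netrin receptor. The labels give the mutants and transgenics by these names alone: alleles, drivers, zygosity, the sorting of embryos and the meaning of UC, UC2x, UR, UR2, URyf, URyf.mef and FRM are not stated, beyond the remark that dosages differed. Array titles speak of biological replicates and array descriptions of technical ones, so the p-values measure the spread between these arrays, which may be technical.

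Values are log2 intensities of the deposited table, and a change is the difference between 2 group means on that scale. Median intensity was 810.4 to 857.3 per array, and the SD of log2 values over all probe sets was 1.629 to 1.826. Arrays of larger SD have a wider distance between bright and dim probe sets. An array was said to stand apart where its SD lay over 0.05 from the median of its group, which held for 6 arrays: URyf 1 and 2, WT 1, robo 4, slit 4 and slit.robo 5. In comm/WT the 3′ minus 5′ difference of the GAPDH control, a sign of RNA length, was 2.80 in replicate 1 and 2.75 in replicate 2, above the 1.81 and 1.78 of replicates 3 and 4. The transcript of unc-5 averaged 13.26 ± 0.03 in UNC5, against 11.45 ± 0.13 in WT (SD, n = 5 each). Mean sli was 9.42 in slit, against 10.14 in slit/WT and 9.68 in WT, robo1 was 11.16 in robo, against 11.09 in robo/WT and 11.34 in WT, and comm was 11.59 in comm, against 11.61 in comm/WT and 11.84 in WT. A mutant allele need not lower its transcript, and the alleles are not given, so these levels check the labels of slit, robo and comm only in part. Whole embryos were measured, so fewer cells of a type and less RNA per cell cannot be told apart.

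Nearly all subunits varied somewhere in the design. A moderated F test over the 17 contrasts against WT passed at an adjusted p below 0.05 for 69 of the 71 genes, a share of 97.2% that equals the 97.2% of all 13966 probe sets. COX4, a nuclear-encoded subunit of complex IV, and ATPsyndelta, a subunit of the ATP synthase stalk, did not pass, with adjusted p of 0.168 and 0.142. The SD of the 18 group means was largest for ND-15 at 0.227 and ATPsynbeta at 0.220, followed by COX7A, COX5A, ATPsynC, ND-39, ND-51, ND-B14, ND-42 and ND-MWFE, the last at 0.169. It was 0.0430 for COX4, 0.0435 for cype and 0.0518 for ATPsynE. These changes are small: the range between the highest and lowest group mean was 0.14 to 0.85 log2 units among the broadly used subunits and 0.28 to 0.55 among the copies.

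**Figure D1:**
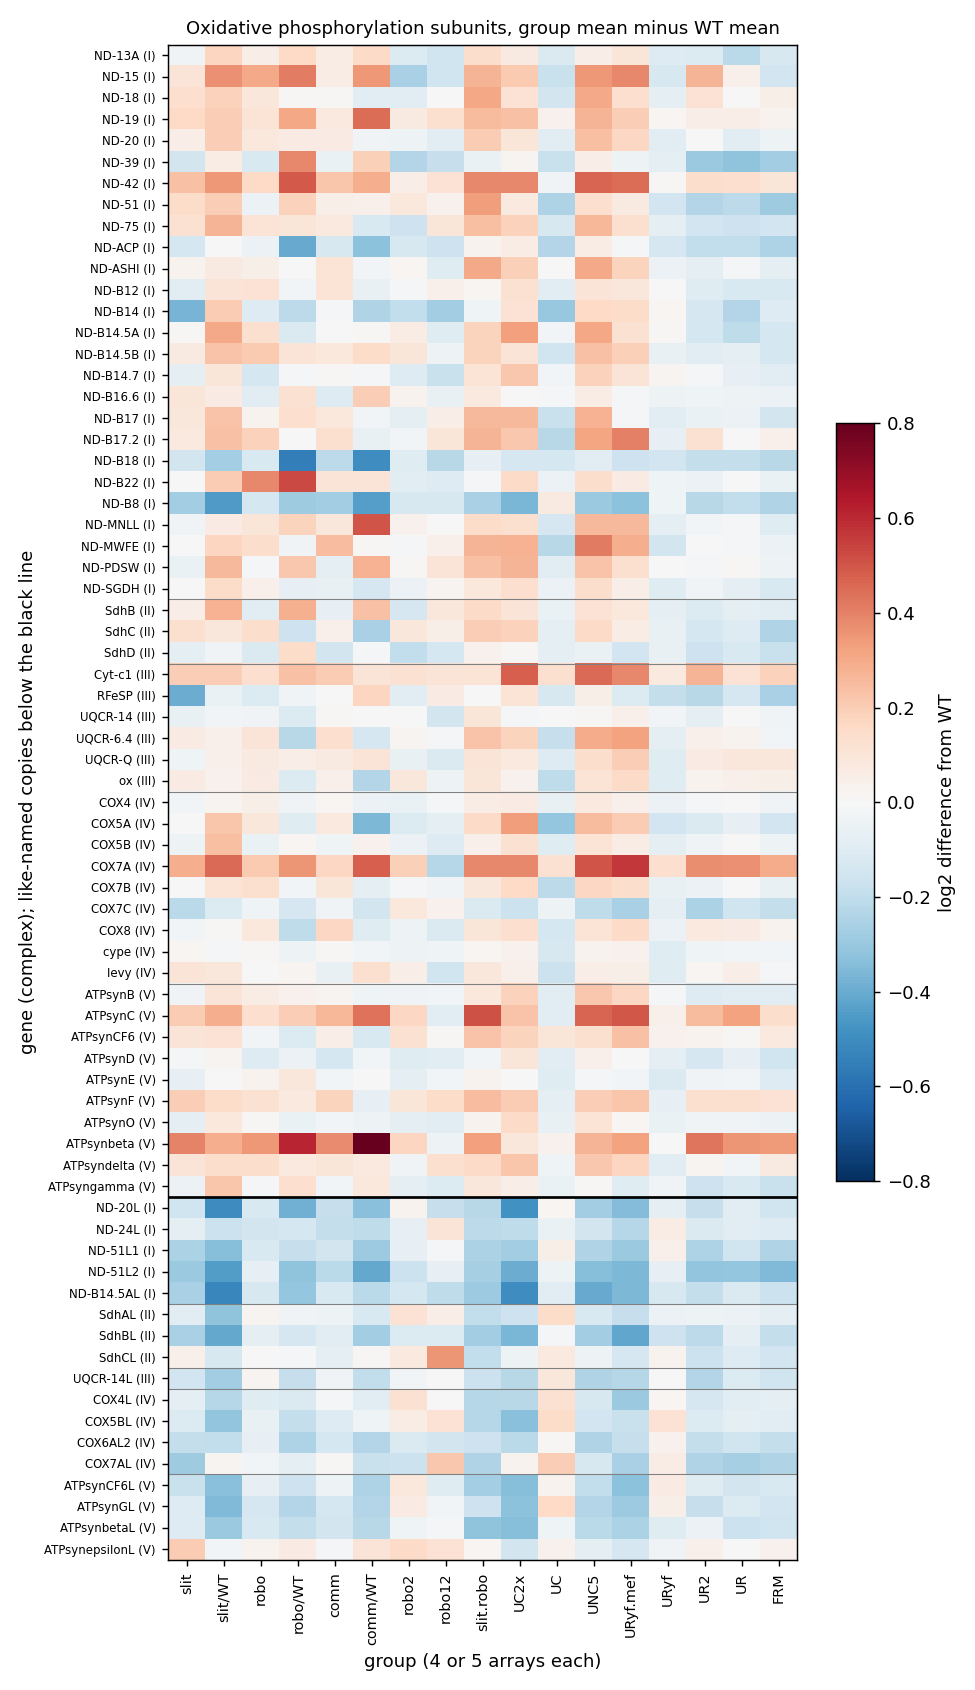
Log2 difference between each group mean and the WT mean (colour, red higher and blue lower) for 71 subunit genes, in rows by complex, and 17 groups in columns. Above the black line lie 54 broadly used subunits and below it 17 like-named copies; COX7A is above WT in all groups but robo12, and most copies are below WT in most groups, while the sign of the medians of the broadly used subunits depends on the scaling.

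The broadly used subunits, mostly bright, and the copies, mostly dim, moved apart, and this followed the SD of the arrays. Over the 18 groups, the mean of the broadly used subunits correlated with mean array SD at r = 0.794 and the mean of the copies at r = -0.967. Both are descriptions over 18 points that share the normalization. The median correlation was 0.469 between pairs of broadly used subunits, 0.746 between pairs of copies and -0.485 between a subunit and a copy. Pairs of broadly used subunits from the same complex had a median r of 0.515, against 0.452 for pairs from different complexes. The 40th percentile of mean level over all probe sets was reached by 52 of 54 broadly used subunits and 7 of 17 copies. Array SD is itself larger where bright and dim probe sets lie further apart, so these correlations cannot tell class from brightness. No r was computed for other bright or dim probe sets. Array SD averaged 1.797 in UC2x, 1.703 in UC, 1.798 in slit/WT, 1.797 in UNC5, 1.805 in URyf.mef, 1.797 in slit.robo and 1.711 in WT. Its part in the class shifts was not tested beyond refitting with array SD as a covariate, with quantile normalization, and with all arrays scaled to one median and SD.

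**Figure D2:**
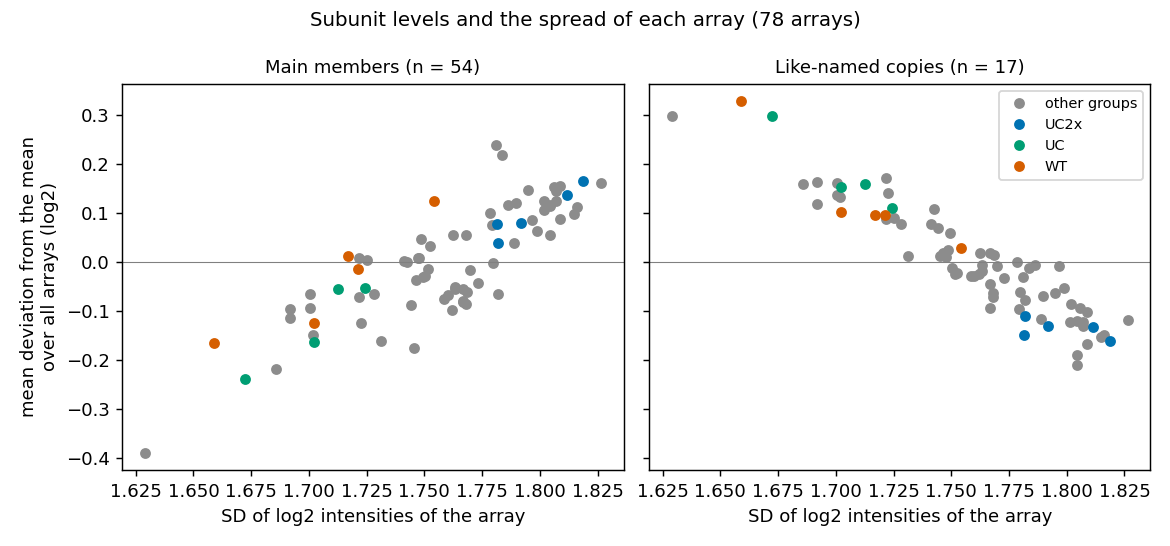
Mean deviation of 54 broadly used subunits (left) and 17 like-named copies (right) from their means over all arrays (log2), against the SD of log2 intensities of the array, 1 point per array for 78 arrays. Points of UC2x, UC and WT are coloured; the left cloud climbs and the right cloud falls with array SD, and UC2x lies between 1.78 and 1.82 while UC lies between 1.67 and 1.72.

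UC2x against UC, 2 groups whose names differ by a dose, showed the widest class shift. Of the 54 broadly used subunits, 43 were called higher and 1, the dim ND-B8, lower in UC2x, with a median change of 0.24. Of 17 copies 15 were called lower, with a median of -0.32. Of all probe sets 69.1% were called, 30.5% higher and 38.7% lower, and the median over all of them was -0.05. Of the bright ones, at or above percentile 40 of mean level, 40.8% were higher and 32.9% lower. The median of the broadly used subunits was 0.05 after quantile normalization, with 19 higher and 6 lower calls, 0.07 with arrays scaled to one SD, with 14 higher and 8 lower, and -0.08 with array SD as covariate, with 0 higher and 14 lower. By complex, higher calls covered 21 of 26 subunits of complex I, 2 of 3 of complex II, 5 of 6 of complex III, 8 of 9 of complex IV and 7 of 10 of complex V on the values as deposited.

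COX5A, a matrix-side subunit of complex IV, had the largest difference between these groups. Its values were 13.79, 13.99, 13.92, 13.84 and 13.86 in UC2x, against 13.07, 13.32, 13.37 and 13.18 in UC. Every UC2x array lay above every UC array. The change was 0.65 ± 0.12 (SE), 1.56-fold, with an adjusted p of 6.71e-06. It ranged between 0.17 and 0.69 over all settings, losing its call in some of them (highest adjusted p 0.279). For single genes, here and below, the settings so counted leave out the other probe set, which 3 of the 71 genes have. How many of all probe sets pass under every setting was not counted in any comparison. ND-MWFE, a small membrane subunit of complex I, was next at 0.50 ± 0.12 as deposited and -0.12 with array SD as covariate. The near-constant COX4 and cype also passed in this comparison, at 0.13 ± 0.05 and 0.16 ± 0.04, and both turned negative when arrays were scaled to one SD (-0.11 and -0.09).

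The copies that fell in UC2x did so under every setting in which they were tested for 4 genes. ND-20L had 9.58, 9.72, 9.68, 9.59 and 9.63 in UC2x, against 10.15, 10.09, 10.20 and 10.11 in UC, a change of -0.50 ± 0.06 with an adjusted p of 8.54e-10. ATPsynGL had 8.93, 8.88, 9.19, 9.07 and 8.88 in UC2x, against 9.66, 9.42, 9.39 and 9.42 in UC. The groups were disjoint for both genes. ATPsynGL changed by -0.48 ± 0.07, ND-B14.5AL by -0.40 ± 0.06 and ATPsynCF6L by -0.37 ± 0.07. COX5BL, at -0.48 ± 0.09, was called as deposited but lost its call in 1 or more settings (highest adjusted p 0.0976). Of the parent subunits measured, ND-20 changed by 0.19 and ND-B14.5A by 0.35, both called higher as deposited, and ATPsynCF6 by 0.08, which did not pass (adjusted p 0.289). Neither call held under every setting: ND-20 ranged between -0.19 and 0.24 and ND-B14.5A between 0.06 and 0.38.

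The slit embryos, set against slit/WT embryos, had lower levels of 11 broadly used subunits, of which 5 passed under every setting run. No broadly used subunit was called higher. Of the copies 6 were called higher and 1 lower. Of all probe sets 26.3% were called, 13.8% higher and 12.6% lower, and of the bright ones 15.4% were higher and 15.5% lower. The median change was -0.11 for the broadly used subunits, between -0.15 and -0.01 over all settings run, and 0.16 for the copies, between 0.12 and 0.20. Called lower were 7 of 26 subunits of complex I and 1 each of complexes II, III, IV and V. Without slit replicate 4, an array that stood apart, 10 of the 71 genes were called rather than 18.

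ND-B14, an accessory subunit of complex I, fell most. Its values were 12.16, 12.37, 12.28 and 12.03 in slit, against 12.89, 12.78, 12.66 and 12.80 in slit/WT and 12.46, 12.77, 12.60, 12.63 and 12.46 in WT. All slit arrays lay below all arrays of both other groups. The change against slit/WT was -0.57 ± 0.10, 1.49-fold, with an adjusted p of 8.38e-06, and against WT it was -0.37 ± 0.09 with an adjusted p of 0.00129.

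RFeSP is the Rieske iron-sulphur protein, which takes electrons from ubiquinol in complex III. It had 12.33, 12.63, 12.58 and 12.41 in slit, against 12.88, 12.77, 12.77 and 12.89 in slit/WT and 12.87, 12.99, 12.86, 12.98 and 12.73 in WT. The slit arrays again lay below both other groups, which overlapped each other. The change was -0.34 ± 0.07 against slit/WT (adjusted p 0.000114) and -0.40 ± 0.06 against WT (adjusted p 1.57e-06). Cyt-c1, the other electron carrier of complex III measured here, changed by 0.00 against slit/WT and did not pass.

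ND-PDSW of complex I, COX5B of complex IV and ATPsyngamma, the rotating central stalk of the ATP synthase, were below slit/WT by less. ND-PDSW had 13.16, 13.26, 13.36 and 13.05 in slit, against 13.59, 13.54, 13.43 and 13.56 in slit/WT. COX5B had 14.47, 14.58, 14.58 and 14.41 in slit, against 14.85, 14.80, 14.71 and 14.79 in slit/WT. ATPsyngamma had 14.45, 14.52, 14.58 and 14.39 in slit, against 14.82, 14.74, 14.72 and 14.72 in slit/WT. Neither group overlapped the other for any of the 3 genes. Their changes were -0.32 ± 0.09, -0.28 ± 0.06 and -0.27 ± 0.05, and with ND-B14 and RFeSP they passed under every setting run. Their means in slit were 13.212, 14.509 and 14.483, against 13.265, 14.548 and 14.531 in WT, and none of the 3 was called in slit against WT. In slit/WT all 3 were called higher than WT as deposited, by 0.26, 0.24 and 0.22, though not under every setting.

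Among the copies, 4 genes were higher in slit than in slit/WT under every setting in which they were tested. ND-20L had 10.01, 9.99, 10.05 and 9.79 in slit, against 9.60, 9.71, 9.53 and 9.64 in slit/WT. Its change was 0.34 ± 0.07 (adjusted p 9.61e-05), and the groups were disjoint. ND-B14.5AL was higher by 0.26 ± 0.06, ATPsynGL by 0.25 ± 0.08 and ATPsynepsilonL by 0.22 ± 0.07. Against WT, slit was called lower for ND-20L (-0.16) and ND-B14.5AL (-0.26) and higher for ATPsynepsilonL (0.20), and ATPsynGL was not called. In slit/WT, ND-20L, ND-B14.5AL and ATPsynGL were called lower than WT, at -0.50, -0.52 and -0.36. COX7AL was the copy called lower, at -0.31, and ND-B14.5A, the parent of ND-B14.5AL, was called lower at -0.30.

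**Figure D3:**
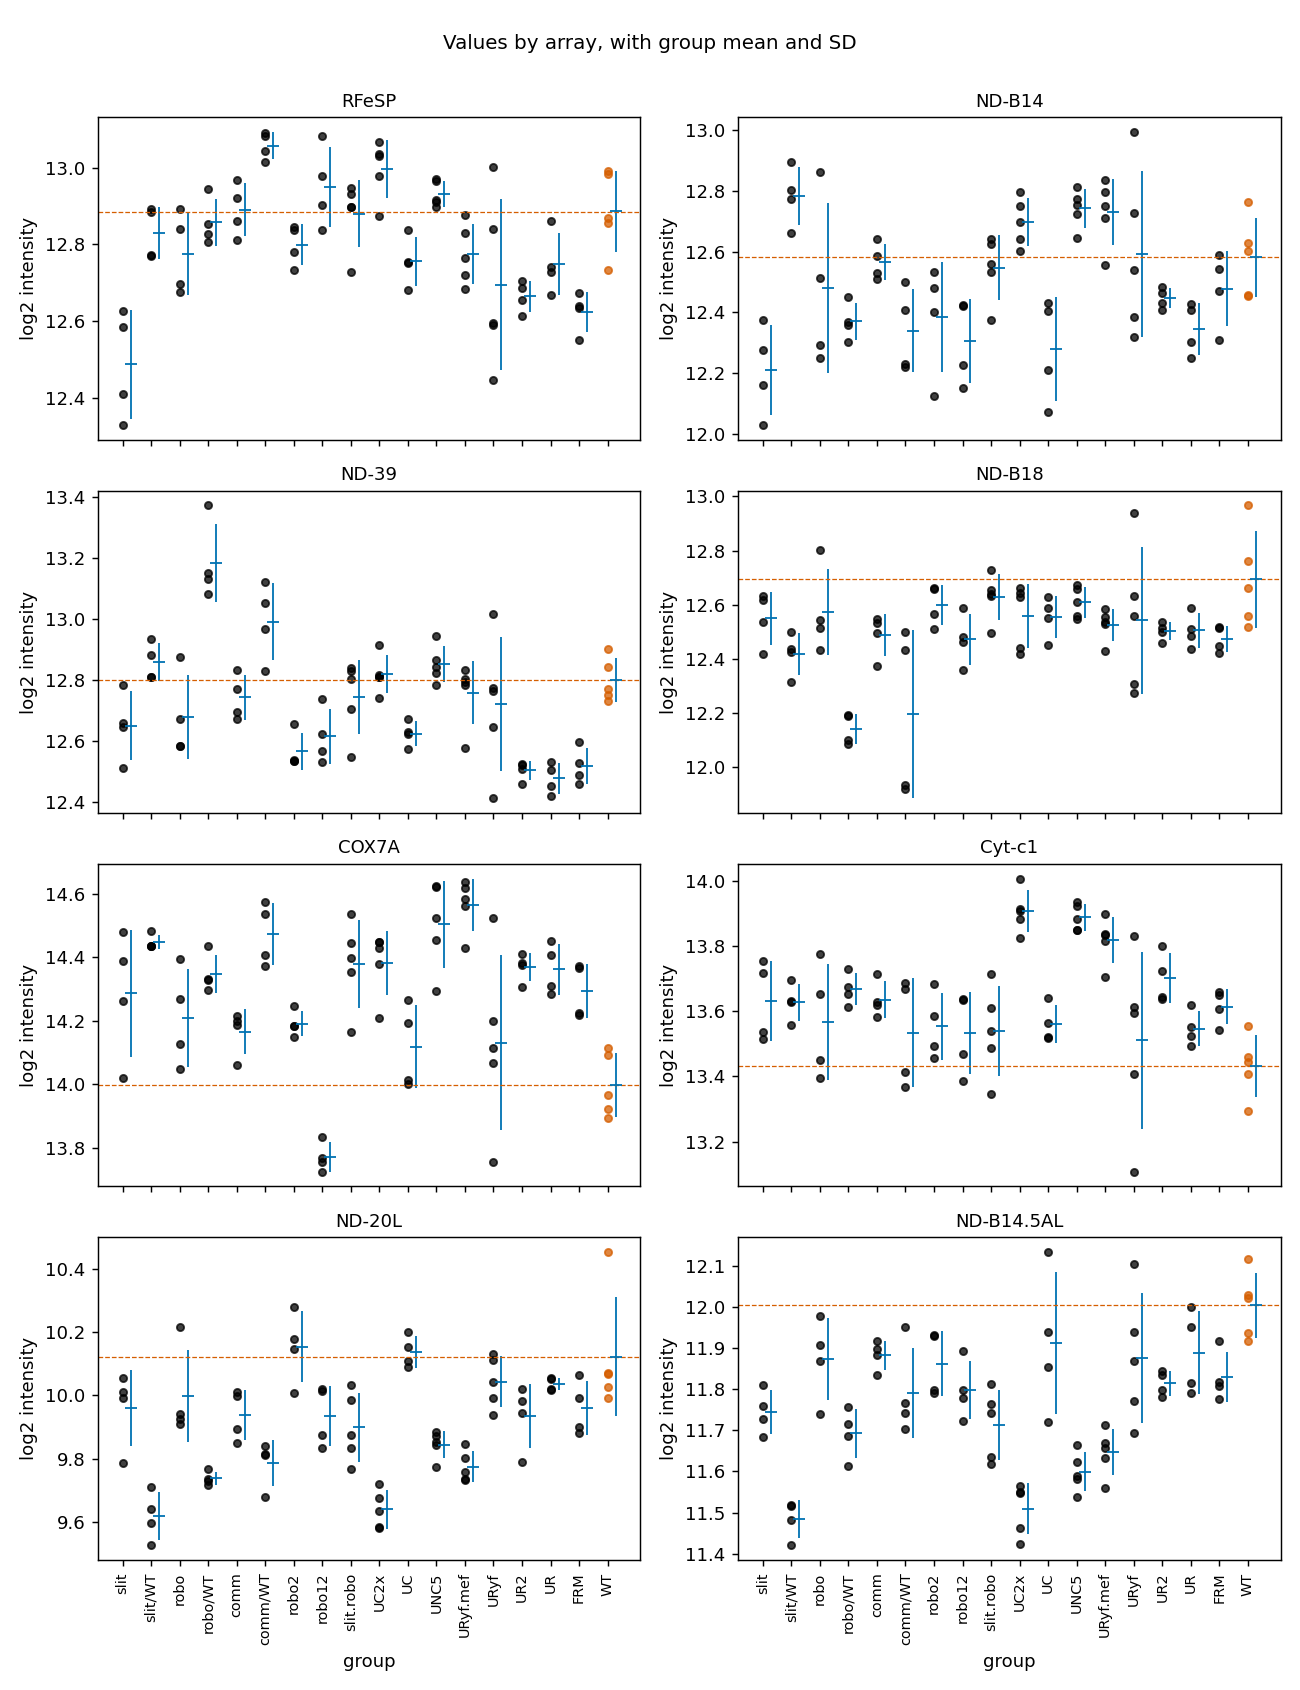
Log2 intensity of 8 subunit genes (1 panel each) on every array of the 18 groups: points are arrays, blue bars the group mean and SD, and the dashed line the WT mean, with WT in orange. ND-B14 and RFeSP are lowest in slit, ND-39 is highest in robo/WT and lowest in UR, UR2 and FRM, ND-B18 is lowest in robo/WT and in comm/WT, where 2 arrays lie far below the other 2, and ND-20L and ND-B14.5AL are lowest in slit/WT and UC2x.

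The robo embryos, set against robo/WT embryos, showed changes in both directions. Of the broadly used subunits 6 were called higher and 7 lower, and 4 copies were called higher. Of all probe sets 29.1% were called, 12% higher and 17.1% lower, and of the bright ones 13.9% were higher and 21.6% lower. The medians were 0.02 for the broadly used subunits, which turned to -0.06 without the arrays that stand apart, and 0.07 for the copies. After quantile normalization 15 broadly used subunits were higher and 6 lower, with arrays scaled 13 and 5, and with array SD as covariate 24 and 4. Leaving out robo replicate 2 gave 10 called genes of the 71 rather than 17, robo replicate 3 gave 9 and robo/WT replicate 4 gave 10.

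ND-39, an accessory subunit at the junction of the complex I arms, had 12.67, 12.59, 12.59 and 12.88 in robo, against 13.15, 13.08, 13.13 and 13.37 in robo/WT. SdhB, the iron-sulphur subunit of complex II, had 13.65, 13.35, 13.36 and 13.79 in robo, against 13.85, 13.89, 13.97 and 13.96 in robo/WT. Both genes were lower on every robo array than on every robo/WT array. The changes were -0.50 ± 0.07 for ND-39 (1.42-fold, adjusted p 1.15e-07) and -0.38 ± 0.08 for SdhB (adjusted p 9.9e-05).

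Opposite to them moved ND-B18 and ND-ACP of complex I and SdhC, a membrane anchor of complex II. ND-B18 had 12.54, 12.51, 12.43 and 12.80 in robo, against 12.19, 12.19, 12.08 and 12.10 in robo/WT. ND-ACP, the mitochondrial acyl carrier protein, had 13.61, 13.53, 13.51 and 13.84 in robo, against 13.35, 13.32, 13.26 and 13.16 in robo/WT. SdhC had 12.56, 12.47, 12.46 and 12.74 in robo, against 12.29, 12.23, 12.18 and 12.31 in robo/WT. For all 3 genes the robo arrays were the higher ones without overlap. The changes were 0.43 ± 0.09, 0.35 ± 0.10 and 0.31 ± 0.09, and with ND-20L (0.26 ± 0.07) they passed under every setting run. The GAPDH 3′ minus 5′ difference was 1.80, 1.81, 1.73 and 1.97 in robo, against 1.96, 2.22, 2.31 and 2.28 in robo/WT. ND-B18, ND-ACP and SdhC were also low on the comm/WT arrays of larger GAPDH difference. In comm/WT ND-B18 had 11.93, 11.92, 12.43 and 12.50, ND-ACP 12.99, 12.98, 13.67 and 13.74, while ND-39 was higher on replicates 1 and 2, at 13.12, 13.05, 12.83 and 12.97. The part of RNA length in these changes was not tested. SdhB and SdhC, which belong to one complex, thus had changes of opposite sign in this comparison.

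Against WT, robo had 3 subunits called higher and 0 lower, where 16.6% of all probe sets were called (7.81% higher and 8.82% lower), and none of the 3 held under every setting. They included ND-B22 at 0.39 ± 0.07 and ND-15 at 0.30 ± 0.10. ND-39 changed by -0.12 and ND-B18 by -0.12 in robo against WT, and neither passed. The robo/WT embryos had 11 broadly used subunits called higher and 4 lower against WT, and 9 copies lower. Of all probe sets 46.6% were called there (20.6% higher and 26% lower), and of the bright ones 26.3% were higher and 25.2% lower. The median of the broadly used subunits was 0.02 there, and it was -0.08 after quantile normalization, with 8 higher and 18 lower, and -0.05 with arrays scaled, with 9 higher and 16 lower.

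Of the calls in robo/WT against WT, 9 held under every setting, 5 higher and 4 lower, with no such count over all probe sets. ND-B22, an accessory subunit of complex I, had 14.41, 14.37, 14.37 and 14.46 in robo/WT, against 13.63, 14.05, 13.91, 13.95 and 13.80 in WT, and rose by 0.53 ± 0.07 (1.45-fold, adjusted p 4.18e-08). ND-42, ND-15 and ND-39, all of complex I, rose by 0.49 ± 0.09, 0.41 ± 0.10 and 0.38 ± 0.07, and COX7A by 0.35 ± 0.08. ND-B18 fell by 0.55 ± 0.09 and ND-ACP by 0.40 ± 0.09. The WT values of ND-B18 were 12.56, 12.97, 12.76, 12.66 and 12.52, all above those of robo/WT given above. Complex I subunits thus stood on both sides of WT in these embryos. The GAPDH 3′ minus 5′ difference averaged 2.19 in robo/WT, against 1.71 in WT, and its part in these changes was not tested. ATPsynbeta rose by 0.61 ± 0.14 but lost its call under some settings (highest adjusted p 0.0709).

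The comm embryos, set against comm/WT embryos, gave higher calls that were lost without either of 2 comm/WT arrays, and lower calls that kept their sign without both. Of the broadly used subunits 6 were called higher and 9 lower, and 1 copy higher. Of all probe sets 21.8% were called (9.52% higher and 12.3% lower), and of the bright ones 11.9% were higher and 14.6% lower. COX5A had 13.73, 13.58, 13.59 and 13.59 in comm, against 12.73, 12.69, 13.63 and 13.69 in comm/WT. SdhC had 12.51, 12.35, 12.46 and 12.51 in comm, against 11.87, 11.96, 12.33 and 12.47 in comm/WT. Replicates 1 and 2 of comm/WT lay far below replicates 3 and 4 for both genes, and they are the arrays with the larger GAPDH difference. Without them, which leaves 2 comm/WT arrays, limma called 0 subunits in this comparison, with 9 at an unadjusted p under 0.05, against 16 called with them. The 7 genes called higher changed by 0.21 to 0.43 with both arrays and by -0.04 to 0.10 without: COX5A by 0.43 ± 0.13 and -0.04 ± 0.13, and SdhC by 0.30 ± 0.09 and 0.05 ± 0.09. The 9 genes called lower changed by -0.43 to -0.25 with both arrays and by -0.24 to -0.15 without, 4 of them at an unadjusted p under 0.05. SdhB changed by -0.30 ± 0.08 with them and -0.24 ± 0.09 without, ND-B16.6 of complex I by -0.30 ± 0.07 and -0.23 ± 0.09, ND-19 by -0.37 ± 0.09 and -0.23 ± 0.10, ND-MNLL by -0.41 ± 0.11 and -0.21 ± 0.13 and ATPsynbeta by -0.43 ± 0.15 and -0.23 ± 0.19. Without replicate 1 alone 6 subunits were called, and without replicate 2 alone 7, all of them lower.

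Against WT, comm/WT had 12 broadly used subunits called higher and 7 lower, and 11 copies lower. Of all probe sets 54.5% were called (21.1% higher and 33.4% lower), and of the bright ones 26.4% were higher and 32.3% lower. Without comm/WT replicates 1 and 2, 11 genes were called rather than 30. After quantile normalization the broadly used subunits split into 6 higher and 31 lower, and with arrays scaled into 9 and 19. ATPsynbeta, the catalytic subunit of the ATP synthase, had 12.77, 12.66, 12.35 and 12.26 in comm/WT, against 10.74, 12.14, 11.79, 12.00 and 11.83 in WT. All comm/WT arrays lay above all WT arrays, and WT replicate 1 was far below the rest of WT. The change was 0.81 ± 0.14, 1.76-fold, with an adjusted p of 4e-06, and it passed under every setting, at 0.41 or more. ND-19, an accessory subunit of complex I, had 13.65, 13.59, 13.35 and 13.36 in comm/WT, against 12.94, 13.23, 13.05, 13.08 and 12.90 in WT, and rose by 0.45 ± 0.08. COX7A rose by 0.48 ± 0.08. ND-B18 (-0.50 ± 0.09) and ND-MNLL (0.50 ± 0.10) did not pass under every setting, while the dim ND-B8 fell by 0.44 ± 0.09 under all in which it was tested. In comm against WT 2 broadly used subunits were called higher (ATPsynbeta at 0.38 and Cyt-c1 at 0.20) and 1 lower (ND-B8 at -0.28), with 3 copies lower, where 27.4% of all probe sets were called (12.1% higher and 15.4% lower), and none held under every setting.

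COX7A, a small subunit of complex IV, was called higher than WT in 11 groups and lower in 1, calls that share the WT arrays. It had 14.58, 14.64, 14.62, 14.56 and 14.43 in URyf.mef, 14.52, 14.62, 14.63, 14.45 and 14.29 in UNC5, 14.38, 14.41, 14.38 and 14.31 in UR2 and 14.54, 14.57, 14.37 and 14.41 in comm/WT, against 13.89, 14.09, 13.97, 14.11 and 13.92 in WT. None of these groups overlapped WT. Its change was 0.57 ± 0.08 in URyf.mef (1.48-fold, adjusted p 7.06e-09), 0.51 ± 0.08 in UNC5 and 0.37 ± 0.08 in UR2, and these passed under every setting, as did those in comm/WT and robo/WT. The changes of 0.45 in slit/WT, 0.39 in UC2x, 0.38 in slit.robo, 0.36 in UR, 0.30 in FRM and 0.29 in slit did not hold under all of them. In robo12 it had 13.76, 13.77, 13.84 and 13.72, all below WT, a change of -0.23 ± 0.08 with an adjusted p of 0.0406 that also did not hold throughout (highest adjusted p 0.105). Ordered by mean, URyf.mef (14.565), UNC5 (14.504), comm/WT (14.473) and slit/WT (14.448) led, and their arrays overlapped. WT (13.998) and robo12 (13.771) came last.

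Cyt-c1, the haem protein that hands electrons to cytochrome c, was called higher in 8 groups against WT, which share the WT arrays. It had 13.83, 13.91, 13.88, 13.91 and 14.01 in UC2x, against 13.41, 13.56, 13.44, 13.46 and 13.29 in WT. The groups were disjoint, with a change of 0.48 ± 0.07 (1.39-fold, adjusted p 1.8e-07) that held under every setting. In UC, Cyt-c1 had 13.52, 13.52, 13.56 and 13.64, and the UC2x minus UC change of 0.35 ± 0.08 shrank to 0.03 at the least and lost its call. The change in UNC5 was 0.46 ± 0.07 and missed the threshold in 1 or more settings (highest adjusted p 0.059).

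ND-39 was lower in the groups FRM, UR2 and UR than in WT, and RFeSP was lower in FRM and UR2. ND-39 had 12.53, 12.49, 12.46 and 12.60 in FRM, 12.53, 12.51, 12.46 and 12.52 in UR2 and 12.53, 12.46, 12.42 and 12.51 in UR, against 12.75, 12.90, 12.73, 12.84 and 12.77 in WT. No array of the 3 groups reached the WT range. The changes were -0.28 ± 0.07 in FRM, -0.30 ± 0.07 in UR2 and -0.32 ± 0.07 in UR, with adjusted p of 0.000841, 0.00054 and 0.00018, and each passed under every setting. In robo2 ND-39 had 12.54, 12.54, 12.54 and 12.66, a change of -0.23 ± 0.07 (adjusted p 0.00696) that also held throughout. These comparisons share the WT arrays.

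RFeSP had 12.63, 12.64, 12.55 and 12.67 in FRM and 12.66, 12.61, 12.71 and 12.69 in UR2, all below the WT values given above. It changed by -0.26 ± 0.06 and -0.22 ± 0.06. In UR its change was -0.14 and did not pass. FRM also had lower SdhC, at 12.21, 12.16, 12.14 and 12.19, against 12.39, 12.48, 12.34, 12.56 and 12.33 in WT, and lower ND-51, the NADH-oxidizing flavoprotein of complex I, at 12.20, 12.28, 12.10 and 12.29, against 12.51, 12.49, 12.48, 12.53 and 12.50 in WT. The changes were -0.24 ± 0.08 and -0.29 ± 0.09, and neither gene overlapped WT. ND-51L2, a copy of ND-51, was lower by 0.35 ± 0.08 on the log2 scale.

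In FRM against WT 1 broadly used subunit was called higher and 10 lower, with 6 copies lower, where 40.8% of all probe sets were called (17.4% higher and 23.4% lower). The counts were 4 and 7 with 9 copies lower in UR2, where 37.7% were called (16.6% higher and 21.1% lower), and 2 and 5 with 3 copies lower in UR, where 33.2% were called (14.4% higher and 18.8% lower). The median of the broadly used subunits was -0.07 in FRM, -0.03 in UR2 and -0.02 in UR. It stayed below 0 over all settings in FRM (-0.26 to -0.02) and UR2, and in UR it ranged between -0.21 and 0.00. Quantile normalization gave 0 higher and 40 lower in FRM, 4 and 30 in UR2 and 1 and 30 in UR, and scaling gave 1 and 35, 3 and 27, and 1 and 24. ATPsynbeta was called higher in UR2 at 0.42 ± 0.14 and ATPsynC in UR at 0.32 ± 0.10, which turned to -0.15 with its dimmer probe set.

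**Figure D4:**
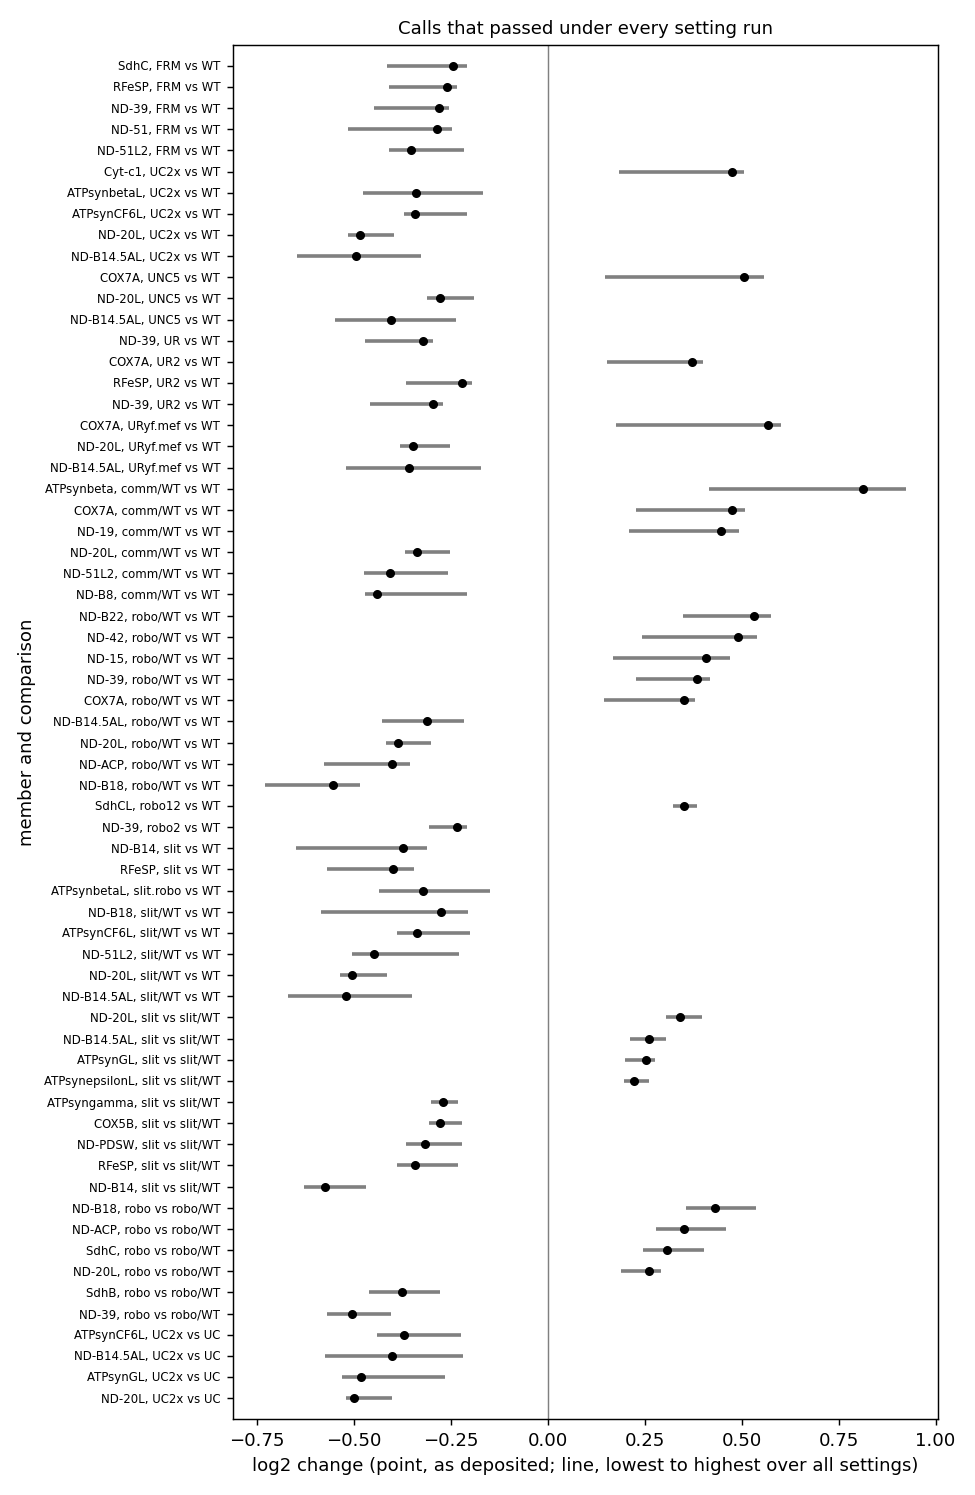
The 64 calls of a subunit gene in a comparison that passed at an adjusted p below 0.05 under every setting in which the gene was tested: the point is the log2 change as deposited and the line spans the lowest to the highest change over all settings. Of these calls 21 are higher and 43 lower, and no such count was made over all probe sets. The other probe set of a gene is not among the settings, and no line can cross 0, since calls were selected to keep their sign.

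UNC5, URyf.mef, slit.robo, slit/WT and UC2x formed a set of groups in which many broadly used subunits were called higher than WT on the deposited values and lower after rescaling. UNC5 had 20 higher and 2 lower, with 11 copies lower, where 54.2% of all probe sets were called, 21% higher and 33.3% lower. URyf.mef had 16 and 3 with 15 copies lower, where 65% of all probe sets were called, 24.3% higher and 40.7% lower. The group slit.robo had 21 and 1 with 15 copies lower (57.1% of all, 21.2% higher and 35.9% lower). In slit/WT there were 18 and 2 with 14 copies lower (62.7% of all, 25.2% higher and 37.5% lower), and in UC2x 18 and 1 with 15 copies lower (58.9% of all, 24.2% higher and 34.7% lower). Of the broadly used subunits 52 of 54 are bright. The share of all bright probe sets called higher was 29.2% in UNC5, 31.5% in URyf.mef, 28.2% in slit.robo, 32.7% in slit/WT and 32.9% in UC2x. The share called lower was 27.6%, 33.2%, 29.9%, 31.2% and 29% in that order. After quantile normalization the broadly used subunits split into 5 higher and 22 lower in UNC5, 5 and 28 in URyf.mef, 2 and 24 in slit.robo, 4 and 16 in slit/WT and 3 and 18 in UC2x. With arrays scaled to one SD it was 9 and 13, 6 and 17, 4 and 14, 6 and 12, and 5 and 12 in the same order. The medians of the broadly used subunits were 0.15, 0.13, 0.11, 0.13 and 0.12 as deposited and -0.15, -0.22, -0.16, -0.18 and -0.16 with array SD as covariate.

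**Figure D5:**
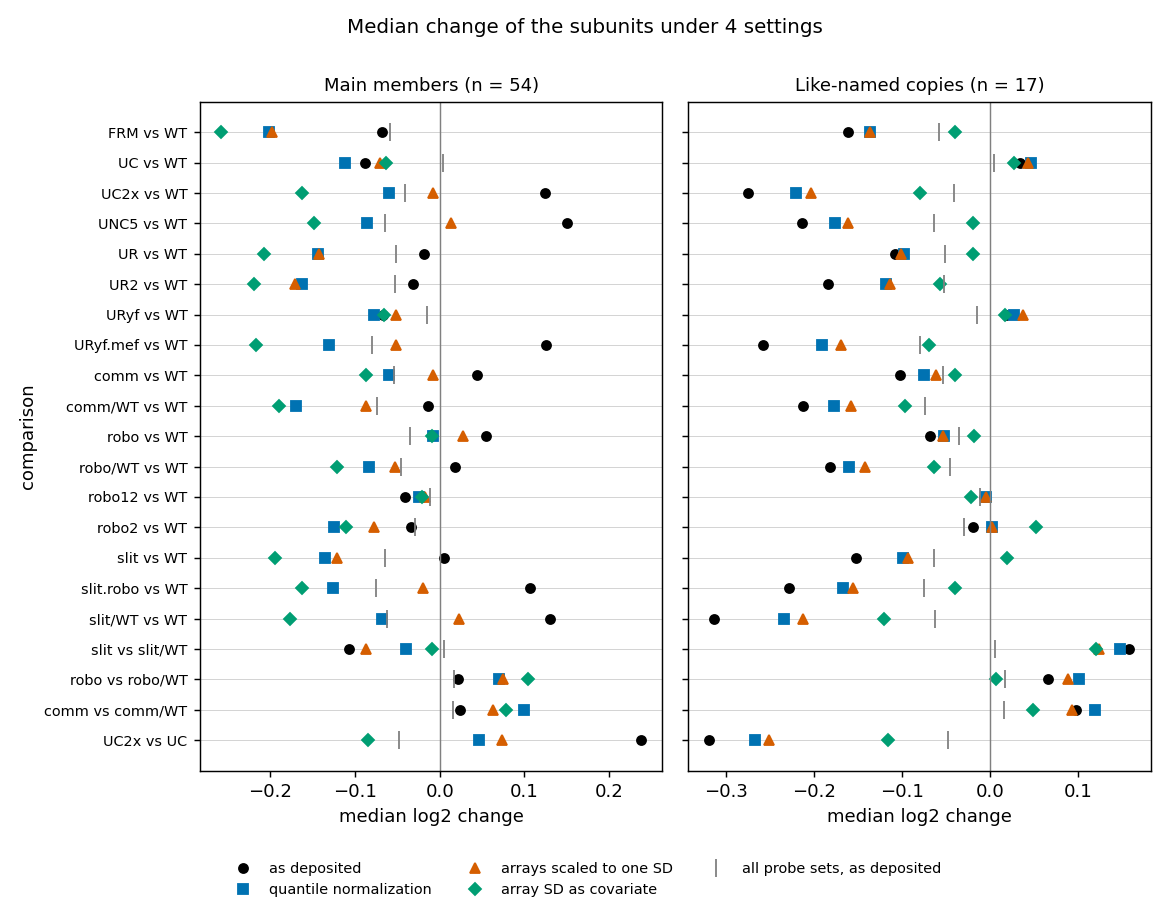
Median log2 change of 54 broadly used subunits (left) and 17 like-named copies (right) in each of 21 comparisons under 4 settings, with the median of all 13966 probe sets as a grey tick. In UC2x, UNC5, URyf.mef, slit.robo and slit/WT against WT the left medians lie above 0 as deposited and below 0 with array SD as covariate or quantile normalization, while the copies lie below 0 in these groups under all 4 settings.

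ATPsynC, the subunit of the rotor ring of the ATP synthase, shows how much rests on the probe set. Its brighter probe set had 14.03, 14.31, 14.06, 13.86 and 13.72 in slit.robo, against 13.31, 13.71, 13.54, 13.45 and 13.42 in WT. The slit.robo arrays lay above WT, by 0.51 ± 0.10 (1.43-fold, adjusted p 2e-05). Its dimmer probe set changed by -0.14 in the same comparison, and likewise by -0.12 in UNC5 and -0.18 in URyf.mef, where the brighter one rose by 0.46 and 0.50. ND-42, an accessory subunit of complex I, was called higher in 8 groups against the same WT arrays, by 0.47 ± 0.09 in UNC5 and 0.39 ± 0.09 in UC2x. With array SD as covariate it was -0.05 in UC2x, and its lowest value over the settings in UNC5 was 0.03.

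The copies were the other side of these groups, and their medians were below 0 in all 5 under every setting run. ND-20L and ND-51L2 were called lower than WT in 12 of 17 groups each, ND-B14.5AL in 11 and ND-51L1 in 10. These counts share the WT arrays, of which replicate 1 had a mean of the copies 0.33 above their mean over all arrays. ND-B14.5AL had 11.55, 11.43, 11.46, 11.56 and 11.55 in UC2x and 11.52, 11.52, 11.42 and 11.48 in slit/WT, against 12.12, 12.03, 11.94, 11.92 and 12.02 in WT. Both groups lay well below WT, at -0.49 ± 0.06 and -0.52 ± 0.06. ND-20L changed by -0.48 ± 0.06 and -0.50 ± 0.06 in the same groups, where its WT values were 10.45, 10.07, 10.03, 9.99 and 10.07. Both copies passed under every setting in UC2x, slit/WT, UNC5, URyf.mef and robo/WT. SdhBL, a copy of the iron-sulphur subunit of complex II, was the lowest in URyf.mef at -0.42 ± 0.08, and ATPsynbetaL in slit.robo at -0.32 ± 0.06.

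Few copies are bright on this array: 7 of 17 reached the 40th percentile of mean level over all probe sets, against 52 of 54 broadly used subunits. ND-20L, ND-51L2, ND-B14.5AL, SdhBL, ATPsynCF6L, ATPsynbetaL and ATPsynepsilonL were those 7. ND-B8 and COX7C, counted as broadly used by name, did not reach that percentile. Of 5 testis markers measured, 0 were called higher and 3 lower in both UC2x and slit/WT against WT, with medians of -0.15 and -0.30. Their summed intensity was 1788 to 2017 in UC2x and 1851 to 2174 in slit/WT, against 2298 to 2765 in WT. The lowest intensity of any testis marker was 88 in UC2x, 80 in slit/WT and 97 in WT. Only 2 of the 5 reached the 40th percentile, so most of them are dim, as most copies are. Of 7 maternal and germline markers, 2 were higher and 4 lower in UC2x and 2 and 5 in slit/WT. The part of these markers in the copies' changes was not tested.

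SdhCL, a copy of the membrane anchor SdhC, went the other way in one group. It had 7.45, 7.64, 7.56 and 7.55 in robo12, against 7.21, 7.17, 7.27, 7.22 and 7.12 in WT. The groups did not overlap, and the change of 0.35 ± 0.07 (adjusted p 7.6e-05) held under every setting in which it was tested, although the probe set is dim. Otherwise robo12 had 0 broadly used subunits called higher and 3 lower, among them ND-B14 at -0.28 ± 0.09, with 2 copies lower, where 18.6% of all probe sets were called (8.51% higher and 10.1% lower). The robo2 embryos had 0 higher and 3 lower (25.6% of all probe sets, 11.8% higher and 13.8% lower), which were ND-15 at -0.26 ± 0.10, ND-39, and SdhD at -0.20.

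The remaining groups gave few calls against WT. In UC 0 broadly used subunits were called higher and 6 lower, led by ND-B14 at -0.30 ± 0.09 and ND-51 at -0.25 ± 0.09, and no copy was called, where 27.8% of all probe sets were (12.4% higher and 15.4% lower). In URyf the one call was RFeSP, at -0.19 ± 0.06, where 9.78% of all probe sets were called (4.77% higher and 5.01% lower). URyf arrays were the most uneven, with the mean of the broadly used subunits between -0.39 and 0.22 around its mean over all arrays. In slit against WT 4 were called higher and 3 lower, with 1 copy higher and 7 lower, where 40% of all probe sets were called (15.8% higher and 24.2% lower). Quantile normalization turned the broadly used subunits in slit to 0 higher and 25 lower, with a median of -0.14 rather than 0.00.

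Other mitochondrial genes were counted beside the subunits. In UC2x against UC, 50 of 64 mitochondrial ribosomal proteins were called higher and 0 lower, with a median of 0.28, against 0.24 for the broadly used subunits. Of 13 genes of the citric acid cycle and pyruvate entry 9 were higher and 0 lower, of 14 genes of mitochondrial biogenesis and import 9 and 1, of 9 glycolysis genes 6 and 1, and of 12 oxidative phosphorylation genes outside the naming rule 8 and 1. Cytosolic ribosomal proteins gave 8 and 5 of 37, with a median of 0.02. In slit against slit/WT, 15 mitochondrial ribosomal proteins were lower and 1 higher, with a median of -0.11, and 4 citric acid cycle genes were lower and 0 higher. In robo against robo/WT, 5 citric acid cycle genes were lower and 0 higher, while the mitochondrial ribosomal proteins split into 9 higher and 8 lower. In FRM and UR against WT, 20 mitochondrial ribosomal proteins were lower in each, with 1 and 0 higher.

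Muscle is rich in mitochondria, and its markers are given beside the subunits. Of 8 muscle markers, 6 were higher and 0 lower in slit.robo against WT with a median of 0.46, where the broadly used subunits had a median of 0.11. In UNC5, UC2x, slit/WT and URyf.mef against WT 5 markers were higher and 1 lower in each, with medians of 0.37 in UNC5, 0.33 in UC2x, 0.28 in slit/WT and 0.27 in URyf.mef, where the subunits had 0.15, 0.12, 0.13 and 0.13 as deposited. With array SD as covariate the median of the subunits was below 0 in all 5 groups, as given above. The summed intensity of the markers was 154254 to 172022 in slit.robo, 161672 to 167042 in UNC5, 152978 to 155943 in UC2x, 155825 to 158579 in slit/WT and 146891 to 155807 in URyf.mef, against 127871 to 144839 in WT. In FRM against WT 5 were higher and 1 lower with a median of 0.24, where the subunits had a median of -0.07. Their summed intensity was 150600 to 156914 in FRM, and the lowest intensity of any muscle marker there was 638. In UC2x against UC 2 were higher and 1 lower with a median of 0.04. Of 8 neuron markers, 3 were higher and 0 lower in FRM against WT, and 1 was higher and 5 lower in UC2x against UC, with a median of -0.23. The part of cell type content in the subunit levels was not tested.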

How the data were processed

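Per the labels, polyadenylated RNA from whole stage 15 embryos was purified on QIAGEN columns, and biotin labelling started from 6 ug of total RNA for Affymetrix arrays. The deposited values are intensities on a linear scale, 1 per probe set and array, made with RMA per the submitters' processing notes, with no version given there. RMA corrects background and equalizes the distribution of probe signals before probes are summarized. The tests had been laid out for log2 values, and the linear values were put on that scale before any step.

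Of 14010 probe sets, 44 controls were left out and 13966 tested. Probe sets were named from the platform annotation, brought to RefSeq symbols through Entrez identifiers for 12393 of the 12442 with a single name. Probe sets with several names (327) or none (1197) stayed unnamed. All 78 arrays entered one linear model of 18 group means, leaving 60 residual degrees of freedom. It was run with lmFit, contrasts.fit and eBayes of limma 3.58.1 (R 4.3.3) and tested on simulated data. Two-sided p-values were adjusted over all probe sets by the Benjamini-Hochberg method within each of 21 comparisons, 17 against WT and 4 between doses, and called below 0.05. Changes are log2 differences ± SE, and folds are given without sign. Alternatives were quantile normalization, array SD as covariate, removal of probe sets below percentile 40, the other probe set of a gene, a fit of the compared groups alone, a replicate block, and leaving out each array. Chosen after seeing the data were leaving out the 6 arrays that stand apart, leaving out both uneven comm/WT arrays, and scaling all arrays to one median and SD. Background correction and slide could not be varied from the processed values.

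The text names the 2 highest and 2 lowest called subunits of each comparison, the 10 most variable ones, core subunits of each complex and the copies with their parents. The members and lists were chosen with earlier results of these data known. Precision is limited by how many arrays a group has. Plots were made with Python 3.11.15 and matplotlib 3.10.9.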

Additional observations from a re-analysis of the deposited data

Results flagged for a closer look

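In each group of 4 or 5 arrays, the highest or lowest value was compared with its nearest neighbour relative to the range of the group (Dixon's criterion at 95%). This was done for 130 sets of values and singled out 13, or 10%. Chance gives about 1 in 20 for independent sets, but these sets share arrays.

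Among genes, ND-39 stood at 12.66 in robo2 replicate 4, above the other robo2 arrays, and ATPsynbeta at 10.74 in WT replicate 1, below the other WT arrays. COX5A was high at 13.73 in comm replicate 1, ND-20L at 10.45 in WT replicate 1, ATPsynGL at 9.66 in UC replicate 1 and ATPsyngamma at 14.82 in slit/WT replicate 1. Among class means, the broadly used subunits in slit.robo replicate 5 deviated by -0.029 from their mean over all arrays, the lowest of that group. The copies deviated by 0.33 in WT replicate 1 and by 0.077 in comm replicate 4, the highest of their groups. Among array SDs, URyf.mef replicate 5 had 1.78, the lowest of its group, and slit/WT replicate 2 had 1.78, also the lowest. For comm/WT replicate 4 the SD was 1.78 and for robo/WT replicate 4 it was 1.79, both the highest of their groups. The changes of ND-39 in robo2 and of ND-20L against WT in UC2x, UNC5, URyf.mef, comm/WT, robo/WT and slit/WT passed also without these arrays.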

How the results depend on the processing

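Of the 423 calls of subunits over the 21 comparisons, 64 (21 higher and 43 lower) passed under every setting in which they were tested. The other probe set of a gene is not among these settings. The share of all probe sets that would pass in this way was not counted. For single subunits named in the text, 1332 values under other settings kept their direction and their side of the threshold, 148 kept the direction but no longer passed, and 29 changed sign. The cause of these moves was not tested. The number of arrays per group and the dim probe sets limit what can be seen: 7 of the 17 copies lay above percentile 40. Background correction and slide were not run. The arrays were not treated as paired by replicate number, since no comparison had all same-number correlations above 0.1. Single correlations reached 0.578 in robo vs robo/WT and 0.518 in UC vs WT, so this rule cannot exclude that some same-number arrays were handled together. The fit with the replicate number as a block moved no count by over 1.5 times and gave 17 in slit vs slit/WT, 59 in UC2x vs UC and 69 in the F test among groups. The other probe set of a gene moved no count by over 1.5 times, but only 3 of the 71 genes have one, so it could change few calls. With array SD as covariate, called subunits numbered 28 in comm vs comm/WT (16 as deposited), 12 in comm vs WT (6 as deposited), 43 in FRM vs WT (17 as deposited) and 29 in robo vs robo/WT (17 as deposited). They numbered 13 in robo vs WT (3 as deposited), 37 in robo/WT vs WT (24 as deposited), 12 in robo12 vs WT (6 as deposited), 24 in robo2 vs WT (3 as deposited) and 36 in slit vs WT (15 as deposited). The covariate also gave 15 in UC vs WT (6 as deposited), 18 in UC2x vs UC (59 as deposited), 40 in UR vs WT (10 as deposited), 40 in UR2 vs WT (20 as deposited) and 5 in URyf vs WT (1 as deposited). After quantile normalization the counts were 28 in comm vs comm/WT, 17 in comm vs WT, 46 in comm/WT vs WT (30 as deposited), 46 in FRM vs WT, 12 in robo vs WT and 18 in robo12 vs WT. Quantile normalization also gave 23 in robo2 vs WT, 32 in slit vs WT, 20 in UC vs WT, 38 in UC2x vs UC, 33 in UR vs WT, 41 in UR2 vs WT and 7 in URyf vs WT. With arrays scaled to one SD the counts were 12 in comm vs WT, 42 in FRM vs WT, 5 in robo vs WT, 16 in robo2 vs WT and 26 in slit vs WT. Scaling also gave 10 in UC vs WT, 34 in UC2x vs UC, 29 in UR vs WT and 37 in UR2 vs WT. When the fit held no other groups than those compared, the counts were 1 in comm vs WT, 16 in comm/WT vs WT, 8 in FRM vs WT, 9 in robo vs robo/WT, 15 in robo/WT vs WT and 1 in robo12 vs WT. That fit also gave 1 in robo2 vs WT, 4 in slit vs WT, 1 in UC vs WT, 5 in UR vs WT and 10 in UR2 vs WT. In the same fit limma called 0 in robo vs WT, with 3 at an unadjusted p under 0.05, and 0 in URyf vs WT, with 0 at an unadjusted p under 0.05. Without the 6 arrays that stand apart the counts were 27 in comm vs comm/WT, 26 in robo vs robo/WT, 9 in robo vs WT, 19 in robo12 vs WT, 8 in robo2 vs WT, 21 in UC vs WT and 5 in URyf vs WT. Without both uneven comm/WT arrays, which leaves 2 of that group, limma called 0 in comm vs comm/WT, with 9 at an unadjusted p under 0.05, and 11 in comm/WT vs WT. Without dim probe sets the counts were 13 in UR2 vs WT and 2 in URyf vs WT. Leaving out each array in turn, counts lay between 6 and 21 in comm vs comm/WT, 0 and 10 in comm vs WT, 20 and 32 in comm/WT vs WT, 9 and 20 in FRM vs WT, 9 and 18 in robo vs robo/WT, 1 and 6 in robo vs WT and 17 and 26 in robo/WT vs WT. They lay between 3 and 10 in robo12 vs WT, 1 and 4 in robo2 vs WT, 10 and 18 in slit vs slit/WT, 8 and 20 in slit vs WT, 28 and 42 in slit.robo vs WT, 26 and 37 in slit/WT vs WT, 1 and 14 in UC vs WT and 41 and 61 in UC2x vs UC. They lay between 22 and 42 in UC2x vs WT, 25 and 43 in UNC5 vs WT, 4 and 13 in UR vs WT, 12 and 22 in UR2 vs WT, 0 and 7 in URyf vs WT, 26 and 40 in URyf.mef vs WT and 67 and 70 in the F test. Leaving out 1 array moved some counts by over 1.5 times. In comm vs comm/WT these were comm/WT 1 (6 without it) and comm/WT 2 (7), and in comm vs WT they were comm 1 (3), comm 2 (1), comm 4 (2), WT 1 (0, with 8 at an unadjusted p under 0.05 by limma) and WT 2 (10). In FRM vs WT it was FRM 1 (9), in slit vs slit/WT slit 4 (10), in UC2x vs WT WT 1 (22), and in slit vs WT slit 2 (8) and WT 1 (8). In robo vs robo/WT they were robo 2 (10), robo 3 (9) and robo/WT 4 (10), and in robo vs WT robo 1 (1), robo 2 (5), robo 4 (1), WT 2 (6) and WT 5 (1). In robo12 vs WT they were robo12 2 (3), robo12 4 (3), WT 1 (10) and WT 2 (3), and in robo2 vs WT robo2 2 (1), WT 2 (1) and WT 3 (1). In UC vs WT they were UC 1 (1), UC 3 (10), UC 4 (1), WT 1 (14), WT 2 (3) and WT 4 (3). In UR vs WT they were UR 2 (4) and WT 1 (5), and in UR2 vs WT UR2 3 (12) and WT 1 (12). In URyf vs WT they were URyf 1 (7), URyf 2 (2), URyf 5 (2) and WT 1 (3), while limma called 0 without URyf 3, URyf 4, WT 2 or WT 4, with 3, 5, 6 and 6 at an unadjusted p under 0.05. Among single log2 changes, the sign turned with array SD as covariate for ATPsynbeta (-0.57), ATPsynO (-0.047), COX4 (-0.056), COX7A (-0.13), levy (-0.12), ND-51 (-0.071), ND-75 (-0.021), ND-MWFE (-0.12), RFeSP (-0.017) and SdhB (-0.15) in UC2x vs UC. It also turned with that covariate for ATPsynbeta (-0.023) in slit vs WT, ND-15 (-0.061) in slit/WT vs WT and ND-42 (-0.047) in UC2x vs WT. With arrays scaled to one SD it turned for ATPsynbeta (-0.013), ATPsynO (-0.016), COX4 (-0.11), cype (-0.088), levy (-0.012) and SdhB (-0.016) in UC2x vs UC. After quantile normalization it turned for ATPsynbeta (-0.11), RFeSP (-0.020) and SdhB (-0.089) in the same comparison. ATPsynbeta in UC2x vs UC also ranged between -0.11 (without UC replicate 1) and 0.14 when each array was left out in turn. With the other probe set it turned for ATPsynC in slit.robo vs WT (-0.14), UNC5 vs WT (-0.12), UR vs WT (-0.15) and URyf.mef vs WT (-0.18). Without both uneven comm/WT arrays it turned for COX5A in comm vs comm/WT (-0.043) and in comm/WT vs WT (0.12).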
